A study of Mus musculus with 6 samples.

Results

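The beta, gamma and minor subunits of the GABA-A receptor were followed in whole hypothalamus of NS-DADm and wild-type (WT) mice by RNA sequencing. The members were chosen by name from the gene rows of the count tables: the beta subunit genes Gabrb1 and Gabrb2, the gamma subunit genes Gabrg1 and Gabrg3, and the delta, epsilon, theta and rho subunit genes Gabrd, Gabre, Gabrq and Gabrr2. They were 8 of 24513 gene rows, and all 8 passed the filter on low counts that left 15894 genes tested. NS-DADm mice, as known for this line rather than from the labels, are knock-in animals with mutations in the deacetylase-activating domain of the corepressors NCOR1 and SMRT, the stretch that switches on their partner enzyme HDAC3, a histone deacetylase. The labels give both genotypes the strain C57BL/6 and an age of 3 to 4 months, and name no treatment. There were 3 NS-DADm and 3 WT libraries, made from total RNA. The labels number the libraries and do not say how many animals stand behind each, so p-values measure the spread between these libraries. The comparison addresses how transcript levels in this region differ when the domain is mutated.

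GABA-A receptors are chloride channels assembled from several subunits around a central pore, and they carry most fast inhibition in the brain. Beta subunits form part of the GABA binding site and are needed for the receptor to reach the membrane. Receptors with a gamma subunit include those at synapses, whereas delta replaces gamma in receptors outside synapses that respond to ambient GABA. Epsilon and theta are found in hypothalamus and brainstem nuclei more than in cortex, and rho subunits, best known from retina, form channels that resist the blocker bicuculline.

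The libraries held 24.2 to 27.5 M (1e6) reads on genes in NS-DADm mice and 26.5 to 27.6 M in WT mice. The summed CPM (reads per 1e6 reads on genes, with scaled library sizes) of 13 thalamus markers was lower in NS-DADm libraries (342 to 381) than in WT libraries (564 to 899). All 12 tested thalamus markers had negative fitted values, and 5 of them fell past the threshold used below. Of the first 4 in the list, Lef1 and Slitrk6 did, and Tcf7l2 and Prkcd did not. The summed CPM of 10 anterior pituitary markers was 199 to 2021 in NS-DADm and 39.8 to 111 in WT libraries, with the highest value in NS-DADm 2, and 1 of them was at 0 in some libraries. The sum of 10 hypothalamic markers such as Oxt and Trh was 699 to 823 CPM in NS-DADm, against 674 to 734 CPM in WT libraries, lowest in WT 1, which was the highest in thalamus markers. Of these 10, 1 rose past the threshold, Trh, named after its value was seen. None of the hypothalamic or thalamus markers was at 0 in any library.

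Between NS-DADm and WT hypothalamus, 0 of the 8 subunit genes passed the threshold of an adjusted p under 0.05, where 0.654% of all tested genes did, 0.0818% higher and 0.573% lower in NS-DADm mice (edgeR quasi-likelihood test, Benjamini-Hochberg adjustment over all genes tested). DESeq2 called 1 of them, Gabrb2, where it called 282 of all 15894 tested genes, and limma voom called 0, where it called 99. At an unadjusted p under 0.05, 3 of the 8 were counted, Gabrb2 and Gabrd lower and Gabrr2 higher in NS-DADm mice, against 10.9% of all tested genes (6.46% lower and 4.40% higher). The same 3 had no overlap between the 3 NS-DADm and the 3 WT libraries, as did 16.8% of all tested genes. The median log2 fold change of the 8 members was 0.08, against 0.004 over all tested genes, and 5 of the 8 were fitted above 0. For the other 5 members the 95% intervals of the log2 fold change each included 0, with a lowest bound of -0.20 (Gabrg3) and a highest of 0.40 (Gabrq).

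**Figure D1:**
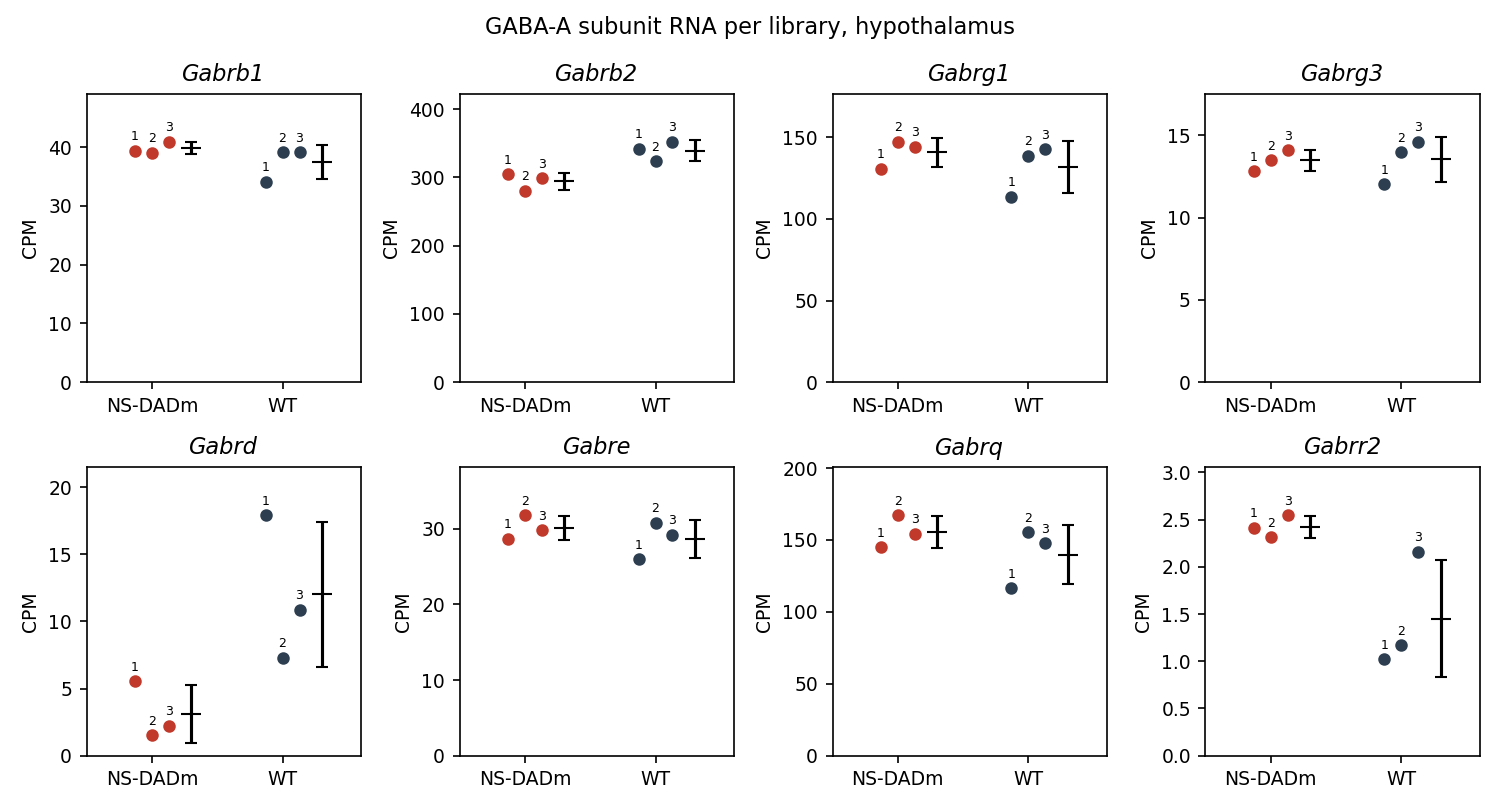
CPM of each subunit gene (vertical axis, starting at 0) in the 3 NS-DADm libraries (red) and the 3 WT libraries (dark blue), with library numbers above the points and mean ± SD as black bars. Gabrb2, Gabrd and Gabrr2 show groups that do not overlap, and WT 1 is the lowest library in 6 of the 8 panels. The share of all tested genes lowest in WT 1 was not counted.

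An upstream window each of Gabrb2 and Gabrr2, the members with the smallest p, is shown, and the windows shown differ in composition and motifs. Sequences of 250 bases before the transcript start were taken from RefSeq windows on GRCm38.p6, the build called mm10. Windows were found for 7 of the 8 members, 10 in all, and none was matched for Gabrd. Capitals mark the TATA box TATAAA and the GC box GGGCGG, on either strand, and the end of each line is the base before the RefSeq start, which for both genes lies inside the longer span that GENCODE gives below.
Gabrb2, chr11:42420190-42420439, plus strand: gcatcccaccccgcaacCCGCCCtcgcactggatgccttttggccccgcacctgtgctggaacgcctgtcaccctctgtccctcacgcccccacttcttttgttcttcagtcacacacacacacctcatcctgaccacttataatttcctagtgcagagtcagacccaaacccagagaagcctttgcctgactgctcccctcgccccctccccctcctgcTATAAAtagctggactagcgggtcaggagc
Gabrr2, chr4:33062862-33063111, plus strand: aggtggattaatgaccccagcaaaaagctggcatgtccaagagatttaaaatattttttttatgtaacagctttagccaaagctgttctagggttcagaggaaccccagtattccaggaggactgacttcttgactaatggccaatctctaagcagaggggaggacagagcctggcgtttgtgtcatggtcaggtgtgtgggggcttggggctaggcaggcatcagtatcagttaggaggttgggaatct
The Gabrb2 window, the first of the 3 for this gene, held TATAAA 30 bases before the start and the GC box in reverse, 233 bases before it. TATAAA or its reverse complement occurred in 1 of the 10 member windows, against 12.4% of 32851 windows of the same length. The GC box occurred in 4 of the 10, in Gabrb2, Gabrg3, Gabre and Gabrq, against 32.7% of all windows. Neither motif was found in the Gabrr2 window. The hexamer AGGTCA, bound by nuclear receptors that recruit NCOR1 and SMRT, was in 0 of the 10 member windows on either strand and in 14.0% of all windows. The motifs searched do not overlap each other in these windows, and a match describes letters only. The GC content was 58.8% in the Gabrb2 window shown and 47.6% in the Gabrr2 window, against a median of 52.4% over all windows and a range of 35.6 to 68.8% over the 10 member windows. Windows 2 and 3 of Gabrb2, at later starts, held none of the motifs searched and had 54.0 and 36.8% GC. The contrast with Gabrr2 therefore covers only the Gabrb2 window shown.

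The genes lie in clusters with alpha subunit genes on mm10. On chromosome 5, Gabrg1 (70751047 to 70842617, minus strand) is followed by Gabra2, Gabra4 and Gabrb1 (71658113 to 72149037, plus strand). Gabrb2 lies on chromosome 11 (42419757 to 42629028, plus strand), beside Gabra6, and Gabrg3 on chromosome 7 (56716465 to 57387188, minus strand), 20.5 kb from Gabra5. Gabre (72255999 to 72274803, minus strand) and Gabrq (72825178 to 72842602, plus strand) stand on either side of Gabra3 on the X chromosome. Gabrr2 (33062999 to 33095865, plus strand) and Gabrd (155384980 to 155398112, minus strand) are on chromosome 4, 122 Mb apart. The 5′ ends of Gabrb1 and Gabra4 overlap on opposite strands and share 46 exon bases, 0.332% of the merged exon length of Gabrb1. Since the strand setting of the counting is not given in the sources used here, reads there cannot be told apart. No other member shared exon bases with another annotated gene. The closest transcript of another gene was 67.5 to 84.2% identical to the 6 members with a match, with the highest value, over 1007 bases, between Gabrr2 and Gabrr1.

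Beta subunits. Gabrb2, the beta subunit of the most widespread receptor type, measured 304, 280 and 299 CPM in NS-DADm 1, 2 and 3, against 342, 323 and 352 CPM in WT 1, 2 and 3. Every NS-DADm library lay below every WT library, with means of 294 ± 12 CPM in NS-DADm, against 339 ± 15 CPM in WT mice (SD, n = 3 each). The fitted log2 fold change was -0.20 ± 0.05 (SE), with a 95% interval of -0.32 to -0.09, and the gene did not pass the threshold (edgeR, Benjamini-Hochberg adjusted p = 0.11). It was past the threshold with DESeq2 (0.019) and with no count filter (0.049), and over the alternatives other than a block on replicate number its adjusted p (edgeR, DESeq2 or limma) ran from 0.019 to 1.00. With the mean log2 CPM of the thalamus marker list entered as a covariate, the log2 fold change was -0.02, with an interval of -0.27 to 0.22. That interval also held the value of -0.20 found without the covariate. Thalamus is known to express Gabrb2 strongly, but the thalamus marker sums of the genotypes did not overlap. Thalamus content and genotype therefore cannot be told apart here. In whole tissue, fewer cells of a type and less RNA per cell cannot be told apart.

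Gabrb1, another beta subunit, measured 39.4, 39.1 and 41.0 CPM in NS-DADm 1, 2 and 3, against 34.1, 39.2 and 39.1 CPM in WT 1, 2 and 3. The groups overlapped, with WT 1 alone below the rest. Its log2 fold change was 0.09 ± 0.07 (SE; edgeR, Benjamini-Hochberg adjusted p = 0.70), 0.03 without WT 1 and -0.11 with the thalamus marker covariate.

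Gamma subunits. Gabrg1, found in some inhibitory neurons and in glia, measured 131, 147 and 144 CPM in NS-DADm 1, 2 and 3, against 113, 139 and 143 CPM in WT 1, 2 and 3. The groups overlapped, and the lowest value of each group was in its library 1. The log2 fold change was 0.10 ± 0.08 (SE; edgeR, Benjamini-Hochberg adjusted p = 0.76), 0.004 without WT 1 and -0.30 with the thalamus marker covariate. Gabrg3, a low-level gamma subunit, measured 12.81, 13.50 and 14.11 CPM in NS-DADm 1, 2 and 3, against 12.03, 13.96 and 14.62 CPM in WT 1, 2 and 3. Its NS-DADm values all lay inside the WT range. The log2 fold change was -0.01 ± 0.09 (SE; edgeR, Benjamini-Hochberg adjusted p = 0.99), with a 95% interval of -0.20 to 0.19, and -0.24 with the covariate. The summed CPM of 8 astrocyte markers, a glial class, overlapped between the groups (2518 to 2629 in NS-DADm and 2523 to 2575 in WT libraries), while 4 of the 8 were lower in NS-DADm mice and 0 higher at an unadjusted p under 0.05 in edgeR, and the median log2 fold change was -0.13.

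The delta subunit. Gabrd, which forms receptors outside synapses, many of them together with alpha 4 in thalamus, measured 5.56, 1.52 and 2.24 CPM in NS-DADm 1, 2 and 3, against 17.9, 7.31 and 10.9 CPM in WT 1, 2 and 3. The groups did not overlap, but the libraries of each group were spread more than 2-fold. These levels rested on 136, 42 and 59 counts in NS-DADm 1, 2 and 3, with exact 95% Poisson intervals of 114 to 161, 30.3 to 56.8 and 44.9 to 76.1, and on 490, 200 and 287 counts in WT 1, 2 and 3. The intervals cover counting error only. The fitted log2 fold change was -1.97 ± 0.62 (SE), with a 95% interval of -3.65 to -0.30, and Gabrd did not pass the threshold (edgeR, Benjamini-Hochberg adjusted p = 0.40). Without NS-DADm 1 the log2 fold change was -2.68, and without WT 1 and NS-DADm 2 together it was -1.23. With 1 library left out it ran from -2.68 to -1.57, with adjusted p-values (edgeR, Benjamini-Hochberg) of 0.27 to 0.80. Its variation between libraries of a group, as a biological coefficient of variation, was 52.4%, against a median of 6.57% over tested genes, and higher than that of 99.8% of them.

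The thalamus marker sum moved with Gabrd. The sums were 381, 342 and 381 CPM in NS-DADm 1, 2 and 3 and 899, 564 and 733 CPM in WT 1, 2 and 3. In WT mice Gabrd and the markers had the same order of libraries, with library 1 the highest and library 2 the lowest. Among NS-DADm mice, library 2 was the lowest in both, while Gabrd differed between libraries 1 and 3, where the marker sums were alike. With the marker mean as a covariate the Gabrd log2 fold change was 0.34, with an interval of -2.14 to 2.81 that covers both directions.

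**Figure D2:**
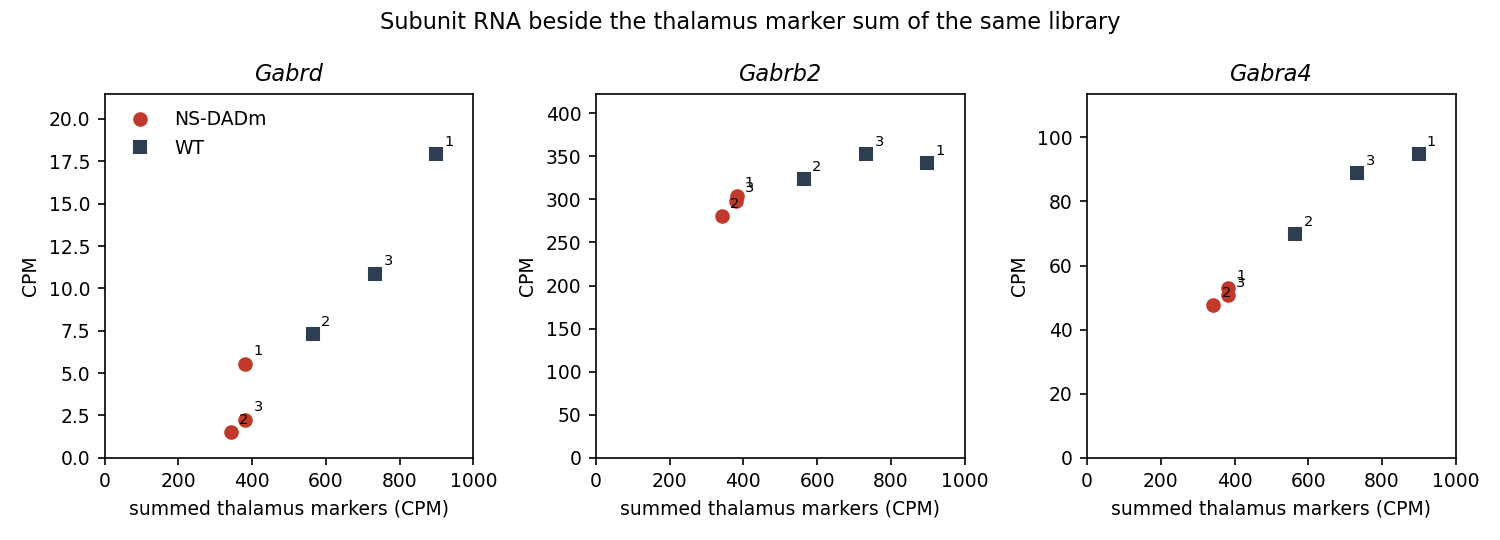
CPM of Gabrd, Gabrb2 and Gabra4 (vertical axes, starting at 0) against the summed CPM of 13 thalamus markers in the same library (horizontal axis), for NS-DADm (red circles) and WT (dark blue squares) with library numbers. The NS-DADm libraries sit at sums of 342 to 381 and the WT libraries at 564 to 899, so the marker sum and the genotype cannot be told apart in any panel.

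Epsilon and theta subunits. Gabre, the epsilon subunit, measured 28.7, 31.8 and 29.9 CPM in NS-DADm 1, 2 and 3, against 26.0, 30.8 and 29.2 CPM in WT 1, 2 and 3. Gabrq, the theta subunit encoded near it on the X chromosome, measured 145, 167 and 154 CPM in NS-DADm 1, 2 and 3, against 116, 155 and 148 CPM in WT 1, 2 and 3. For both genes the groups overlapped and WT 1 was the lowest library. The log2 fold changes were 0.07 ± 0.07 for Gabre and 0.15 ± 0.11 for Gabrq (SE; edgeR, Benjamini-Hochberg adjusted p = 0.80 and 0.68). Without WT 1 they were 0.01 and 0.04. With the thalamus marker covariate the fitted values turned to -0.30 for Gabre and -0.43 for Gabrq, of which neither passed the threshold (edgeR, Benjamini-Hochberg adjusted p = 0.57 and 0.34). The interval of Gabrq in that fit, -0.72 to -0.15, was the only one of the 8 members that did not include 0.

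The rho subunit. Gabrr2 measured 2.41, 2.32 and 2.55 CPM in NS-DADm 1, 2 and 3, against 1.02, 1.17 and 2.16 CPM in WT 1, 2 and 3. Every NS-DADm library lay above every WT library, although WT 3 stood nearer to the NS-DADm libraries than to WT 1 and WT 2. The level rested on 59, 64 and 67 counts in NS-DADm 1, 2 and 3, and on 28, 32 and 57 in WT 1, 2 and 3. The exact 95% Poisson interval of the 57 counts of WT 3, 43.2 to 73.9, reached across all NS-DADm counts. The fitted log2 fold change was 0.74 ± 0.24 (SE), with a 95% interval of 0.22 to 1.27, and did not pass the threshold (edgeR, Benjamini-Hochberg adjusted p = 0.25). Without WT 3 it was 1.14, with an adjusted p of 0.077 (edgeR, Benjamini-Hochberg), and over all alternatives the adjusted p (edgeR, DESeq2 or limma) ran from 0.077 to 1.00. With the thalamus marker covariate the value was 0.82, with an interval of -0.52 to 2.16.

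**Figure D3:**
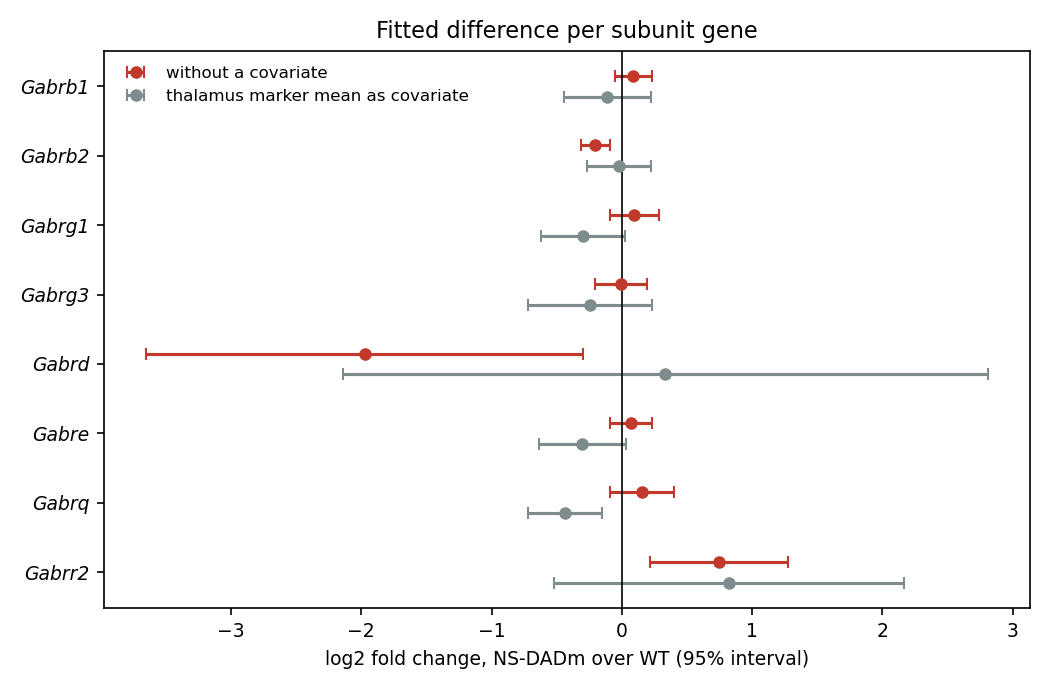
Fitted log2 fold change of each subunit gene, NS-DADm over WT (horizontal axis), with 95% intervals, from the edgeR fit without a covariate (red) and with the thalamus marker mean as a covariate (grey). Gabrd has 0.34 with the covariate and -1.97 without it, Gabrb2 has -0.02 with it and -0.20 without it, and Gabrr2 has 0.82 with it and 0.74 without it.

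WT 1 was the lowest of the 6 libraries for 6 of the 8 members, Gabrb1, Gabrg1, Gabrg3, Gabre, Gabrq and Gabrr2, and the highest for Gabrd. The share of all tested genes lowest in WT 1 was not counted, so this describes the library and not these subunits in particular. WT 1 differed from WT 2 and WT 3 by 9.98 and 9.40 times counting noise, and WT 2 from WT 3 by 3.30 (chi-square per degree of freedom). By summed CPM, WT 1 was also the library with the most thalamus and the least hypothalamic marker RNA. The hypothalamic markers did not move together in it. Oxt measured 146, 126 and 122 CPM in WT 1, 2 and 3, whereas Pmch measured 102, 150 and 174 CPM. Without WT 1, the log2 fold changes of Gabrg3 and Gabrr2 were -0.08 and 0.55. With WT 1 and NS-DADm 2 left out together, a choice made after the data were seen, the log2 fold changes of Gabrg1, Gabre and Gabrq were -0.03, -0.04 and -0.02. In that fit Gabrb2 had -0.16 and passed the threshold (edgeR, Benjamini-Hochberg adjusted p = 0.049).

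Levels of different subunit genes were compared per kb of merged exon, as CPM per kb. Gabrb2 was the highest of the 8, with 46.3 ± 2.0 CPM per kb in NS-DADm and 53.4 ± 2.3 in WT mice (mean ± SD, n = 3 each). Gabrq followed with 29.1 ± 2.1 CPM per kb in NS-DADm and 26.1 ± 3.9 in WT mice, and Gabrg1 with 17.9 ± 1.1 in NS-DADm and 16.7 ± 2.0 in WT mice. Over the 6 libraries, the ranges of these 3 genes did not overlap each other. Gabre, at 6.36 ± 0.33 CPM per kb in NS-DADm and 6.05 ± 0.52 in WT mice, lay below them, and Gabrb1, at 2.88 ± 0.072 in NS-DADm and 2.71 ± 0.21 in WT mice, lay below Gabre. In CPM without length, Gabrb1 (39.8 in NS-DADm and 37.5 in WT mice) lay above Gabre (30.1 in NS-DADm and 28.7 in WT mice). The order per kb rests on GENCODE lengths, and the annotation used for the counting is not known. The place of Gabrd differed, with 1.08 ± 0.75 CPM per kb in NS-DADm mice, at the level of Gabrg3 (1.13 ± 0.055) and Gabrr2 (1.15 ± 0.055). In WT mice Gabrd had 4.18 ± 1.9 CPM per kb, Gabrg3 1.13 ± 0.11 and Gabrr2 0.69 ± 0.29. The ranges of Gabrd overlapped those of its neighbours Gabrb1 and Gabrg3, and those of Gabrg3 and Gabrr2 overlapped too.

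Gabrb2 made up 43.8 ± 2.2% of the summed CPM per kb of the 8 genes in NS-DADm and 48.1 ± 2.6% in WT mice, and Gabrq made up 27.4 ± 1.8% in NS-DADm and 23.5 ± 2.8% in WT mice. Gabrd made up 1.03 ± 0.72% in NS-DADm and 3.81 ± 1.9% in WT mice. The theta subunit was the second most abundant of the 8 by this scale. With the longest transcript as the length, the order of the 8 genes was the same, with Gabrb2 averaging 79.4 in place of 49.8 CPM per kb over the 6 libraries. On that length Gabrq averaged 29.9 and Gabrg1 28.5 CPM per kb and their ranges overlapped, so the second place of theta rests on the length used.

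**Figure D4:**
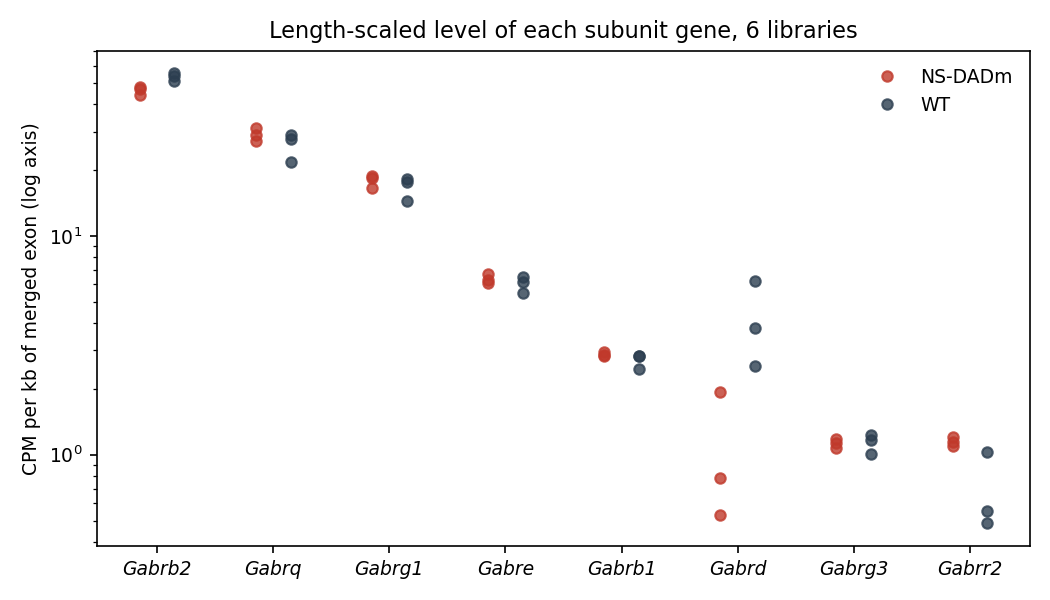
CPM per kb of merged exon (vertical log axis) for the 8 subunit genes in order of their mean, with 1 point for each of the 3 NS-DADm (red) and 3 WT (dark blue) libraries. Gabrb2, Gabrq and Gabrg1 stand above the rest, and Gabrd spans 0.53 to 6.23 CPM per kb.

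Ratios of counts within a library do not depend on the scaling between libraries, and 4 were compared with an exact two-sided permutation test, whose smallest possible p with 3 against 3 is 0.10. The log2 ratio of Gabrb2 to Gabrb1 was 2.95, 2.84 and 2.87 in NS-DADm 1, 2 and 3, against 3.32, 3.05 and 3.17 in WT 1, 2 and 3. It was lower in every NS-DADm library, by a mean difference of -0.29 (exact permutation p = 0.10, 0.20 after Benjamini-Hochberg adjustment over the 4 ratios). The log2 ratio of Gabrg3 to Gabrg1 averaged -3.38 ± 0.055 in NS-DADm and -3.28 ± 0.038 in WT mice (SD, n = 3 each; exact permutation p = 0.10, adjusted 0.20). Its groups did not overlap either, though neither gene alone had groups apart.

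The log2 ratio of Gabrq to Gabre was 2.37 ± 0.030 in NS-DADm and 2.28 ± 0.099 in WT mice (SD, n = 3 each; exact permutation p = 0.20, adjusted 0.20). The theta count was 4.48 to 5.26 times the epsilon count over the 6 libraries, lowest in WT 1. The log2 ratio of Gabrd to its frequent partner Gabra4 was -3.25, -4.97 and -4.50 in NS-DADm 1, 2 and 3, against -2.40, -3.25 and -3.03 in WT 1, 2 and 3. NS-DADm 1 lay just above WT 2, so the groups overlapped, and the mean difference was -1.34 (exact permutation p = 0.20, adjusted 0.20).

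**Figure D5:**
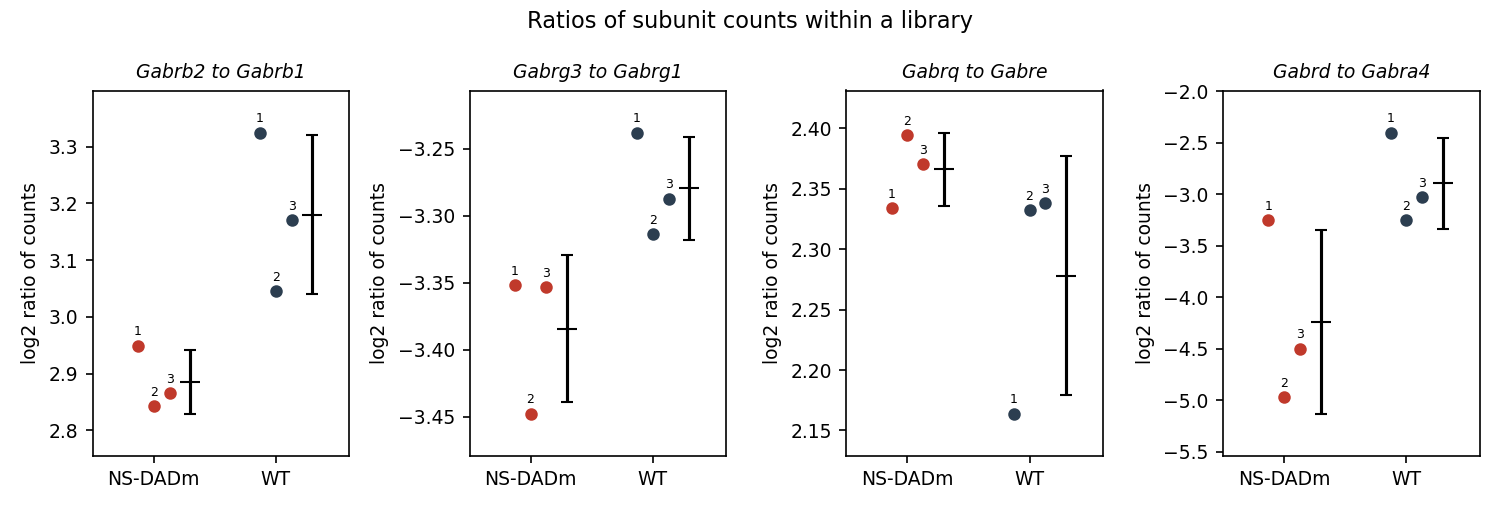
Log2 ratio of counts of 2 subunit genes in the same library (vertical axes, not starting at 0), for the 3 NS-DADm (red) and 3 WT (dark blue) libraries with library numbers, and mean ± SD as black bars. The NS-DADm ratios of Gabrb2 to Gabrb1 sit at 2.84 to 2.95, below the WT ratios of 3.05 to 3.32.

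The alpha subunits, which join beta subunits and a gamma, delta, epsilon or theta subunit in a receptor, were read in the same fit. Of 5 tested, 1 fell past the threshold and 0 rose, against 0.654% of tested genes called in either direction, with a median log2 fold change of -0.10. This was Gabra4, with 53.0, 47.7 and 50.8 CPM in NS-DADm 1, 2 and 3, against 94.7, 69.8 and 88.9 CPM in WT 1, 2 and 3 (log2 fold change -0.74 ± 0.10 SE; edgeR, Benjamini-Hochberg adjusted p = 0.024). Its call was lost when any of WT 3, NS-DADm 2 and NS-DADm 3 was left out (edgeR, Benjamini-Hochberg adjusted p = 0.14, 0.15 and 0.11), against a minimum fold of 1.2 (0.17), and with the thalamus marker covariate, where the log2 fold change was -0.09 (0.87). Gabra2, between Gabrg1 and Gabrb1 on chromosome 5, had 42.2, 38.8 and 40.8 CPM in NS-DADm 1, 2 and 3, against 35.4, 85.0 and 84.5 CPM in WT 1, 2 and 3. WT 1 thus lay below the NS-DADm libraries and the other WT libraries above them. Gabra2 did not pass the threshold with all libraries (log2 fold change -0.75 ± 0.39 SE; edgeR, Benjamini-Hochberg adjusted p = 0.61), and without WT 1 it had -1.06 and passed it (edgeR, Benjamini-Hochberg adjusted p = 1.27e-09). Gabrg1 and Gabrb1, the members of the same cluster, did not have this pattern, with WT 1 the lowest library and the other WT libraries near the NS-DADm ones. Gabra3 and Gabra5 had log2 fold changes of -0.10 and 0.09, neither past the threshold, and Gabra6 had at most 1 count in a library.

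Genes that assemble, move and anchor GABA-A receptors formed a second list, with 23 tested members. None passed the threshold with edgeR, DESeq2 or limma voom, 3 had an unadjusted p under 0.05 in edgeR (1 higher and 2 lower, where 10.9% of all tested genes had such a p), and the median log2 fold change was 0.02. The 4 smallest p-values belonged to Slitrk3, an adhesion protein of inhibitory synapses, Shisa7, an auxiliary protein of GABA-A receptors, Nsf, a fusion ATPase, and Iqsec3, a gephyrin partner. Slitrk3 had a log2 fold change of -0.18 and measured 51.8 ± 1.0 CPM in NS-DADm mice, against 58.7 ± 3.1 CPM in WT mice (SD, n = 3 each). Shisa7 had 0.18 and measured 136 ± 3.8 CPM in NS-DADm, against 120 ± 9.0 CPM in WT mice (SD, n = 3 each). Nsf and Iqsec3 had log2 fold changes of -0.09 and 0.09. Without WT 1, Slitrk3 passed the threshold (edgeR, Benjamini-Hochberg adjusted p = 0.035).

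Genes for GABA synthesis, packaging, uptake and breakdown and for chloride transport had 11 tested members, of which 0 passed the threshold with edgeR, DESeq2 or limma voom. At an unadjusted p under 0.05 in edgeR, 2 were higher and 1 lower, against 4.40% and 6.46% of all tested genes, and the median log2 fold change was 0.04. Abat, which breaks GABA down, had 0.15, Slc32a1, the vesicular GABA transporter, 0.11, Gad1, a GABA-synthesising enzyme, 0.06, and Slc12a2, a chloride importer, -0.11. The sum of 8 general neuronal markers was 5370 to 5479 CPM in NS-DADm, against 5603 to 5809 CPM in WT libraries, without overlap, and its part in these values was not tested.

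The genes most like Gabrb2 and Gabrr2 across the 6 libraries were found among 14533 genes that averaged 1 CPM or more. For Gabrb2 they were Ppp3cb, Mef2a and Foxp1, each with a Pearson correlation of 0.99 of log2 CPM, and 115 genes were above 0.95. For Gabrr2 they were Fam69a (0.99), Greb1l (0.98) and Eif2ak2 (0.98), and 29 genes were above 0.95. These are descriptions over libraries that share the genotype difference, and carry no test.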

How the data were processed

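The deposited tables hold raw read counts per gene symbol, which the authors made by aligning with TopHat2 2.0.9 to mm10 and counting with HTSeq, per the submitters' processing notes. No source used here gives the HTSeq version, annotation, strand setting or library kit. The 5 rows of unassigned reads stayed out of the library sizes and the tests (13.3 to 14.8% of entries outside genes, 1.00 to 1.06% ambiguous and 14.3 to 16.5% not uniquely aligned). Libraries held 24.2 to 27.6 M (1e6) gene reads.

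The whole table was fitted with the robust quasi-likelihood test of edgeR 4.0.16 (R 4.3.3), after filterByExpr and TMM scaling (factors 0.992 to 1.01) and with no covariate. P-values were adjusted by Benjamini-Hochberg over all 15894 genes tested, with a threshold of 0.05. Each SE is the size of the log2 fold change over the root of its F value, and 95% intervals use the SE and the fit's degrees of freedom. Alternatives used other scalings and filters, a minimum fold of 1.2, DESeq2 1.42.0, limma 3.58.1, the thalamus marker covariate, a replicate block, and each library left out. The longest transcript replaced merged exons as the length, and 0.5 or 5 counts were added before ratios.

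The members and all gene lists were chosen with earlier results of these data known. All 8 members are named. From the pathway lists, called genes and the smallest p-values up to 4 a list are named, with the alpha subunits, and similar genes are the 3 with the highest correlation. Some genes that this rule names are not reported here. Insyn1 of the anchoring list was not used here. Gene lengths and positions came from GENCODE M21, similarity from BLAST 2.17.0, and figures from matplotlib 3.10.9. Libraries of a group differed by 3.30 to 9.98 times counting noise (chi-square per degree of freedom), so none was a repeat of another.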

Additional observations from a re-analysis of the deposited data

How the results depend on the processing

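The count of genes called was 13 higher and 91 lower in NS-DADm mice, and it moved with the choices made. With no count filter it was 31 higher and 172 lower, with the DESeq2 Wald test 49 and 233, against a minimum fold of 1.2 only 2 and 6, and with the thalamus marker covariate 6 and 2. Library totals without factors left 60 lower. Leaving out each library in turn gave 1 to 102 higher and 4 to 243 lower, with 1 and 4 without NS-DADm 2, 2 and 6 without NS-DADm 3, 2 and 8 without WT 3, 36 and 70 without NS-DADm 1, 19 and 243 without WT 2, and 102 and 210 without WT 1. Without WT 1 and NS-DADm 2 together, chosen after seeing the data, 239 were higher and 345 lower. Of the 8 members, 1 was called lower with no filter, with DESeq2 and without that pair of libraries. In these fits 203 of 20438, 282 of 15894 and 584 of 15879 tested genes were called in either direction. Across the genotypes, same-numbered libraries had correlations of 0.13, 0.09 and -0.03 in their deviations of log2 CPM from the group means. Differently numbered libraries had -0.12 to 0.06. These weak correlations do not settle whether the replicate numbers of the labels pair the libraries. With the replicate number as a replicate block, 77 genes were called higher and 332 lower, of 15894 tested. With this block 2 members were called lower, Gabrb2 (edgeR, Benjamini-Hochberg adjusted p = 0.013) and Gabrd (1.16e-06). The mean differences of the ratios, such as -0.29 for Gabrb2 to Gabrb1, cannot move under such a paired layout. Of the alpha subunits 0 were called lower against the minimum fold and with the covariate, and 0 to 2 with a library left out. Of the anchoring list and of the supply list 0 to 1 were called lower with a library left out, and 1 each without WT 1 and NS-DADm 2. The log2 fold change reversed with the covariate for Abat (-0.089), Gabra5 (-0.16), Gabrb1 (-0.11), Gabrd (0.34), Gabre (-0.30), Gabrg1 (-0.30), Gabrq (-0.43) and Shisa7 (-0.027), and without WT 1 and NS-DADm 2 for Gabre (-0.035), Gabrg1 (-0.034) and Gabrq (-0.018). Gabrg3, near 0, had 0.0058 with upper quartile factors, 0.0068 with library totals, and -0.081 to 0.053 with a library left out. The cause of these shifts was not tested. Gabrr2, with 28 to 67 counts, and Gabrd, with 42 to 490, were the members with the lowest mean CPM. For Gabrd the libraries of a group were spread beyond counting error, with a biological coefficient of variation of 52.4%.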

Other observations

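Summed levels of other marker lists differed between the genotypes without overlap. The 8 cortex and hippocampus markers summed to 123 to 131 CPM in NS-DADm, against 137 to 148 CPM in WT libraries. In that list 5 of the 7 tested markers were fitted above 0, so most of them did not share the lower sum. Emx1, which did not pass the count filter and was not tested, averaged 0.15 CPM in NS-DADm mice, against 0.074 CPM in WT mice. Neurod6 averaged 1.17 CPM in NS-DADm mice, against 1.11 CPM in WT mice. Tbr1 averaged 6.25 CPM in NS-DADm, against 7.15 CPM in WT mice. Slc17a7, named after its values were seen, had the lowest log2 fold change of the list, -2.25. It was the 1 marker of the list with an unadjusted p under 0.05 (edgeR, 0.018, Benjamini-Hochberg adjusted 0.33). It averaged 4.89 ± 2.74 CPM in NS-DADm mice, against 22.9 ± 10.01 CPM in WT mice (SD, n = 3 each). The 8 microglia markers summed to 262 to 274 CPM in NS-DADm, against 280 to 295 CPM in WT libraries, and the 7 endothelium markers to 117 to 124 CPM in NS-DADm, against 127 to 154 CPM in WT libraries. The sums of 8 striatum and 7 choroid plexus markers overlapped between the genotypes, as did that of 8 oligodendrocyte markers, at 4199 to 4837 CPM in NS-DADm, against 4834 to 5218 CPM in WT libraries. The part of these lists in the members' values was not tested.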
